A study of Mus musculus with 4 samples.

Results

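Firre and 4933407K13Rik, the transcript of the Dxz4 locus, are long noncoding RNA genes of the mouse X chromosome, and they were examined by parental allele in the prefrontal cortex. They were chosen by name as 2 of the 46320 gene identifiers in the expression tables, of which 2607 are X-linked. Together with them were taken all listed regions of allelic methylation difference inside or within 2 kb of their gene rows, which were 11 of 1600 regions, 10 at Firre and 1 at 4933407K13Rik. The mice were females, 14 weeks old, from a cross of C57BL6J and Spretus. All of them carried the mutation of Xist on the maternal allele, and no group without it was analysed here. Tissue of 2 individuals from separate litters was pooled, and RNA-seq and MethylC-seq, a bisulfite method that reads the methylation of single cytosines, had 2 libraries each. The order of strains in the label was taken to name the mother before the father. The C57 X chromosome is therefore treated as the maternal and active one and the Spretus X chromosome as the paternal and silenced one. Strain, parent of origin and activity of the X chromosome cannot be told apart in this cross.

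Silencing of an X chromosome in female mammals is started by Xist, which coats the chromosome it is made from. The silenced chromosome folds into a pair of very large contact domains, and Dxz4, an array of tandem repeats, lies at the hinge between them. Firre makes a nuclear RNA with its own repeated domain that binds the protein hnRNP U, and the Firre locus makes long-range contacts with Dxz4 on the silenced X chromosome. Both loci are known for binding CTCF, the main insulator protein of vertebrates, on the silenced chromosome, and at human DXZ4 this goes with low DNA methylation there.

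The mutated gene was checked before the members. Xist counts were 2158 on Spretus and 31 on C57 in RNA library 1, and 795 on Spretus and 9 on C57 in RNA library 2. Allele-assigned reads totalled 4768237 in library 1 and 1291903 in library 2, while the read depth of MethylC-seq is unknown. Of 20 markers of cortical neurons, glia, microglia and endothelium, 20 reached 1 FPKM in library 1 and 19 in library 2. Markers of choroid plexus, of cerebellum and of olfactory bulb, 2 for each, had summed FPKM values of 1.03 to 3.07 in library 1 and 0.0862 to 1.06 in library 2. The blood markers Hba-a1 and Hbb-bs had 291 and 539 FPKM in library 1 and 20.5 and 46.6 FPKM in library 2. The part of blood in the results was not tested.

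Firre (ENSMUSG00000085396.6) stood at X 50555744 to 50635321, a gene row of 79.6 kb, and 4933407K13Rik (ENSMUSG00000087396.6) at X 75706932 to 75764699, a row of 57.8 kb. RefSeq places both on the minus strand, so each gene starts at the end with the higher coordinate, 50635321 for Firre and 75764699 for 4933407K13Rik. In RefSeq the genes are shorter, 72.2 kb for Firre and 39.2 kb for 4933407K13Rik. The last 7.38 kb of the Firre row lie outside RefSeq Firre, and 6.86 kb of the row overlap Gm35612, a noncoding RNA gene on the plus strand with no row of its own in the tables. Use of strand in counting is not stated in the sources used here, and reads from that stretch cannot be assigned to Firre alone. The pseudogene Gm7153 lies inside the 4933407K13Rik row and had 0 allele-assigned reads.

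The start windows of both genes are shown because a region of allelic methylation difference overlaps that of 4933407K13Rik and lies 46 bases from that of Firre. They run from 250 bases before the start to 50 bases after it, from RefSeq on build GRCm38.p6, which is mm10, and are written 5′ to 3′ on the minus strand with CpG sites in capitals. The Firre window is chrX:50635272-50635571 and the 4933407K13Rik window is chrX:75764650-75764949.
Firre: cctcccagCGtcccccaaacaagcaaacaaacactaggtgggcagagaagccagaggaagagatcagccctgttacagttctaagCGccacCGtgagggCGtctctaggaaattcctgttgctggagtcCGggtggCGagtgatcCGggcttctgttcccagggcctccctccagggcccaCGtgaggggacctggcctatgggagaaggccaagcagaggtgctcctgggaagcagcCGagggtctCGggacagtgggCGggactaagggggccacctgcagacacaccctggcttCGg
4933407K13Rik: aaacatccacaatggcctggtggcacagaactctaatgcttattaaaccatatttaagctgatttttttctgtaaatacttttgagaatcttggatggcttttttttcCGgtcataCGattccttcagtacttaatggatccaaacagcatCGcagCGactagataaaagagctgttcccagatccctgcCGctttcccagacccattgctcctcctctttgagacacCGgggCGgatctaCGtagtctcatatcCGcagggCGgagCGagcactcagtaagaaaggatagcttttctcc

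The Firre window held 12 CpG sites and 62.7% G and C, and the 4933407K13Rik window held 11 CpG sites and 45.3% G and C. Over 1223 X-linked windows the median was 7 CpG sites (interquartile range 3 to 15) and 51.0% G and C, so both had more CpG sites than the median window. The repeats inside the genes, where CTCF is known to bind, lie outside these windows and their sequence was not used here.

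Both transcripts came almost entirely from the C57 X chromosome. For Firre, library 1 gave 15 Spretus against 791 C57 reads, and library 2 gave 1 Spretus against 162 C57 reads. For 4933407K13Rik, library 1 gave 1 Spretus against 46 C57 reads, and library 2 gave 0 Spretus against 13 C57 reads. In each library the C57 count was far above the Spretus count, and the alleles did not overlap for either gene. Such a gap was not particular to the members. Among 316 X-linked genes with at least 20 reads in each library, 159 had no Spretus read, so their alleles did not overlap either. Non-overlap among the remaining X-linked genes was not counted, so 159 is a minimum and not the full number. By summed Spretus share, 292 of the 316 genes lay below Firre. In edgeR's quasi-likelihood test, given below, 394 of 397 genes on this chromosome had a C57 excess at an adjusted p under 0.05.

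**Figure D1:**
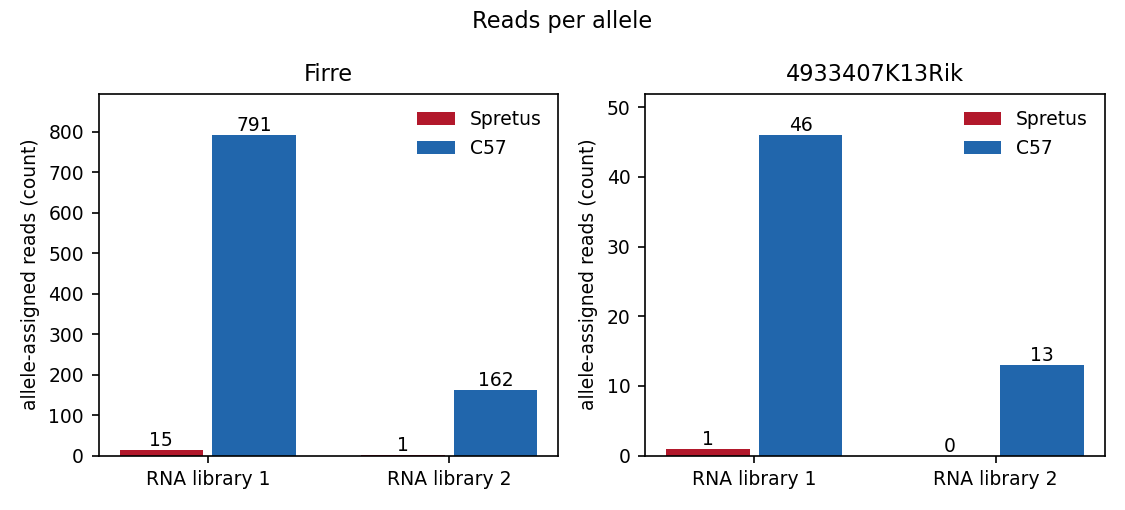
Bars give the number of reads assigned to the Spretus and to the C57 allele of Firre and 4933407K13Rik in each RNA library, on linear axes that differ between the panels. Spretus bars reach 15 reads at most for Firre and 1 read for 4933407K13Rik, against C57 bars of 162 and 791 reads and of 13 and 46 reads.

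Reads assigned to the Spretus allele made up 1.65% of the allele-assigned Firre reads, 16 of 969 (exact 95% Clopper-Pearson interval 0.947 to 2.67%). The share was 1.86% in library 1 (1.05 to 3.05%) and 0.613% in library 2 (0.0155 to 3.37%), with a mean of 1.24% ± 0.882 (SD, n = 2). Library 1 supplied 15 of the 16 Spretus reads, so the summed share rests mainly on it. No difference between the libraries was detected (Fisher's exact test, two-sided, p = 0.496). For 4933407K13Rik the share was 1.67%, 1 of 60 reads, with an interval of 0.0422 to 8.94%. In library 2 it had 0 Spretus reads of 13, and the exact interval there reaches 24.7% (23.1% if a count of 0 is taken to allow 3 reads). The depth therefore bounds Firre well and 4933407K13Rik only loosely. Intervals and limits cover counting error only, since the reads carry no molecular identifiers. Assignment of reads to the wrong allele was not tested.

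By edgeR's quasi-likelihood test, with p adjusted by Benjamini-Hochberg over 11981 genes, the log2 ratio of Spretus over C57 was -5.70 for Firre (SE 0.30, adjusted p = 1.11e-07). For 4933407K13Rik the same test gave -5.46 (SE 0.59, adjusted p = 3.72e-05). Both members were thus called toward C57, as were 99.2% of the 397 X-linked genes tested (98.7% by DESeq2), so the direction of the members is that of the chromosome. In reads, the Spretus to C57 ratio was 0.0168 for Firre (exact interval 0.00956 to 0.0274) and 0.0169 for 4933407K13Rik (0.000422 to 0.0982), the last resting on 1 Spretus read. Without library 1, which holds all but 1 of these Spretus reads, the fitted log2 ratios were -7.07 for Firre and -6.66 for 4933407K13Rik. Neither value carries a test. With 0 Spretus reads of 13 in library 2, the value of 4933407K13Rik is set by depth and a small count that the fit adds. The labels do not tie the libraries to separate animals, so the spread between libraries behind the p-values may be technical. That spread is estimated with 2 residual and 9.34 prior degrees of freedom, so it draws largely on the other genes. The fit does not pair the alleles of a library, so its spread also holds differences in total level between libraries.

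The fitted ratios of both genes lay in the upper part of the X-linked range. The place of 4933407K13Rik rests on 1 Spretus read in 60. Without library 1 the ratio of Firre was lower, and that of 4933407K13Rik rested on no Spretus read, as given above. Of the 397 tested X-linked genes, 362 had a lower log2 ratio than Firre and 366 a lower one than 4933407K13Rik. The median X-linked ratio was -8.46. For a gene with no Spretus read the fitted ratio depends on depth, as with F8 at -8.31 (0 of 81 reads) and Gnl3l at -12.11 (0 of 1032). The rank of 4933407K13Rik, with 60 reads, therefore depends in part on its depth. Among 316 X-linked genes with at least 20 reads in each library, 292 had a lower Spretus share than Firre and 23 a higher one, and 159 had no Spretus read. The median X-linked share was 0% (interquartile range 0 to 0.458%). Pooled over the other genes without Xist it was 1.20%, 1447 of 120818 reads, which lies inside the interval of Firre. This pooled value includes genes that escape silencing. Firre had more reads than most X-linked genes, 19 of which exceeded it, and a gene with few reads shows a low share less finely.

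By nearness of the summed Spretus share over both libraries, the 5 genes most like Firre were Slitrk2, Shroom4, Rpl36a, Mbtps2 and Brcc3. Slitrk2, a synaptic membrane protein gene, had 6 Spretus against 288 C57 reads in library 1 and 0 against 82 in library 2, a share of 1.60%. Rpl36a, a ribosomal protein gene, stood at 1.53%, and Mbtps2, a membrane protease gene, at 1.52%. Shroom4 stood at 1.76% and Brcc3, a deubiquitinase gene, at 1.50%. The exact intervals of all 5 overlap that of Firre, which follows from choosing them by share and shows no likeness beyond it. 4933407K13Rik had fewer than 20 reads in library 2 and was not matched in this way.

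Spretus reads were rare at the measured neighbours of both loci too. The 10 nearest genes to Firre with enough reads, 5 on each side, had 12 Spretus reads in 1898, a pooled share of 0.632% (exact interval 0.327 to 1.10%), against 1.65% for Firre (0.947 to 2.67%). These intervals overlap. Of the 10 genes, 7 had no Spretus read, the nearest of them, Rap2c, lying 369 kb away with 0 Spretus and 124 C57 reads. Utp14a, a ribosome assembly gene 2270 kb away, had 9 Spretus against 119 C57 reads in library 1 and 1 against 35 in library 2, a share of 6.10%. It alone among the 10 exceeded Firre. Around 4933407K13Rik the 10 nearest such genes had 17 Spretus reads in 3351, or 0.507% (0.296 to 0.811%). Much of this pool is not local. Tmem47 lay 5310 kb away with 3 Spretus reads in 540, and Dmd 7180 kb away with 6 in 1027. Pls3, an actin-bundling protein gene 21.0 kb from the start of 4933407K13Rik, had 3 Spretus against 330 C57 reads in library 1 and 1 against 105 in library 2. On the other side Rab39b, 129 kb away, had 0 Spretus reads in 151. All 20 neighbours were called toward C57 in the edgeR test, as were 99.2% of the X-linked genes tested, so this count says nothing particular to them.

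**Figure D2:**
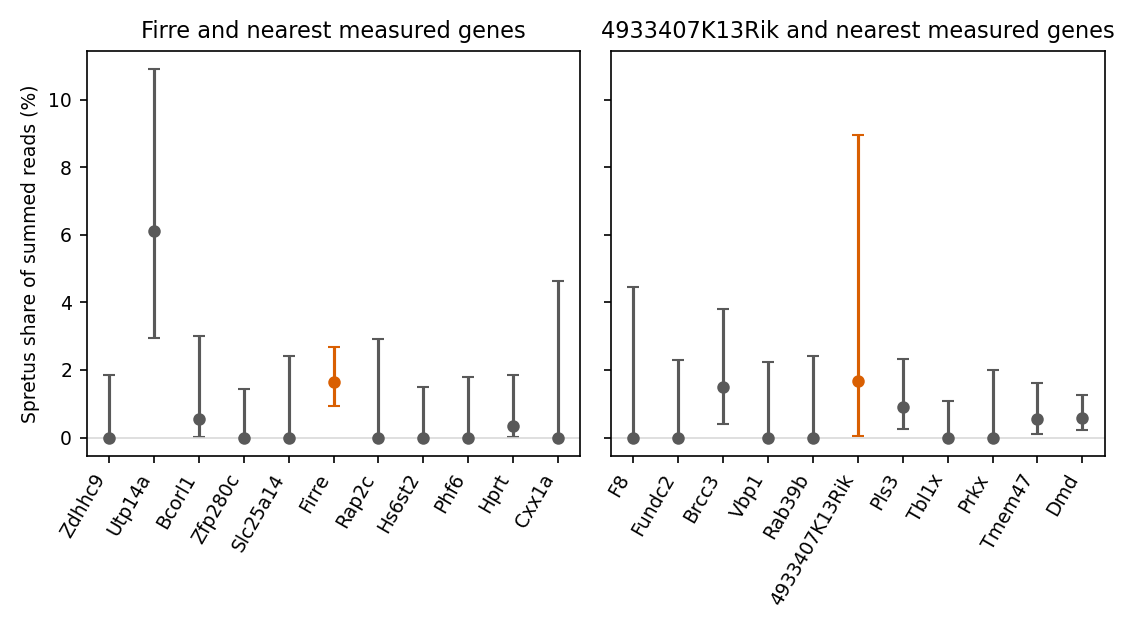
Points give the Spretus share of reads summed over both RNA libraries, in percent, for each locus (orange) and its 10 nearest measured genes (grey) in chromosomal order, and bars are exact 95% intervals of counting error. Firre at 1.65% stands above 9 of its neighbours and below Utp14a at 6.10%, and the bar of 4933407K13Rik reaches 8.94%.

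In level, Firre was a moderately expressed transcript and 4933407K13Rik a weak one. FPKM values, which are per length and hold both alleles, were 11.0 in library 1 and 1.46 in library 2 for Firre, and 0.933 and 0.197 for 4933407K13Rik. Among 22680 genes with an FPKM of at least 0.1 in either library, Firre lay at percentile 71.0 in library 1 and 66.9 in library 2, and 4933407K13Rik at percentiles 32.5 and 36.5. The FPKM of Firre was 11.8 times that of 4933407K13Rik in library 1 and 7.42 times in library 2. On the log2(FPKM + 1) scale the means were 2.44 ± 1.62 for Firre and 0.605 ± 0.488 for 4933407K13Rik (SD, n = 2). Over 11974 genes, the median ratio of deposited FPKM between library 1 and library 2 was 5.72, and these means hold that difference of scale. Beside that median, the same ratio was 7.53 for Firre, at percentile 87.0 of these 11974 genes. For 4933407K13Rik it was 4.73, below the median and at percentile 20.3.

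Scaled to the allele-assigned reads of each library, Firre had 169 CPM in library 1 (exact Poisson interval 158 to 181) and 126 CPM in library 2 (108 to 147). These intervals do not overlap. The ratio of 1.34 lay at percentile 96.6 of 3678 genes with at least 100 reads in each library, whose ratios ran from 0.691 to 1.30 between the 5th and the 95th percentile. 4933407K13Rik had 9.86 CPM in library 1 (7.24 to 13.1) and 10.1 CPM in library 2 (5.36 to 17.2), a difference within counting error. No test across libraries is possible with 1 library on each side.

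Other loci of the X-inactivation centre and X-linked noncoding genes covered a wide range of Spretus shares. The list of 10 genes includes both members. Of the 10, 9 had a row and 8 were tested in edgeR's quasi-likelihood test. Toward C57 were called 7, both members among them, beside 99.2% of the tested X-linked genes, and Xist was called toward Spretus. The median log2 ratio of the 8, with both members and Xist included, was -4.40, beside -8.46 over the tested X-linked genes. Beside Firre at 1.65% and 4933407K13Rik at 1.67%, 5530601H04Rik, a noncoding gene known to escape silencing, stood at 22.4% (exact interval 18.0 to 27.3%), and Ftx, a noncoding gene next to Xist, at 8.74% (6.44 to 11.5%). Jpx, a noncoding activator of Xist, stood at 7.94% (2.63 to 17.6%) with 5 Spretus reads in 63. Rlim, which encodes a ubiquitin ligase that promotes Xist expression, stood at 0.203%. Gm14636 had no Spretus read in 155, with an exact interval that reaches 2.35%. The intervals of 5530601H04Rik and Ftx lie wholly above that of Firre, and that of Rlim wholly below it. Tsix, the antisense partner of Xist, had 1 read in all and was not tested. The interval of 4933407K13Rik overlaps those of Ftx, Jpx, Rlim and Gm14636.

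Genes listed from the literature for proteins that act with these loci were expressed as RNA in the tissue, and protein was not measured. All 15 genes listed for chromosome architecture and silencing reached 1 FPKM in both libraries. Ctcf stood at 17.0 and 3.13 FPKM in libraries 1 and 2, Rad21, a cohesin subunit, at 23.3 and 4.55, Hnrnpu at 41.8 and 7.66, and Smchd1, which maintains silencing of the X chromosome, at 7.78 and 1.45. In the edgeR test, adjusted by Benjamini-Hochberg, 0 of the 15 were called toward Spretus and 2 toward C57, beside 2.32% and 6.23% of all genes tested. The called genes were the X-linked cohesin genes Smc1a, with 0 Spretus reads in 483, and Stag2, with 0 Spretus reads in 278. Of the X-linked genes tested, 99.2% were called toward C57, so these calls are those of the chromosome. The other genes of the list are autosomal, and none of them was called. The median log2 ratio of the list was -0.10, and that of all genes tested 0.01.

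The loci differed in the methylation regions listed for them. At Firre 9 of 10 regions were more methylated on the active C57 allele, the reverse of the usual direction, since 12.6% of the 594 X-linked regions were higher on C57 and 87.4% higher on Spretus. The region at the start of Firre was the exception and was higher on Spretus. 4933407K13Rik had a single region, at its start and also higher on Spretus. Levels are the authors' values for each allele, fractions from 0 to 1, from a list in which the MethylC-seq libraries are not separated, so they carry no replicate error and no test was made. Of a stretch that the list does not hold, the level is unknown.

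**Figure D3:**
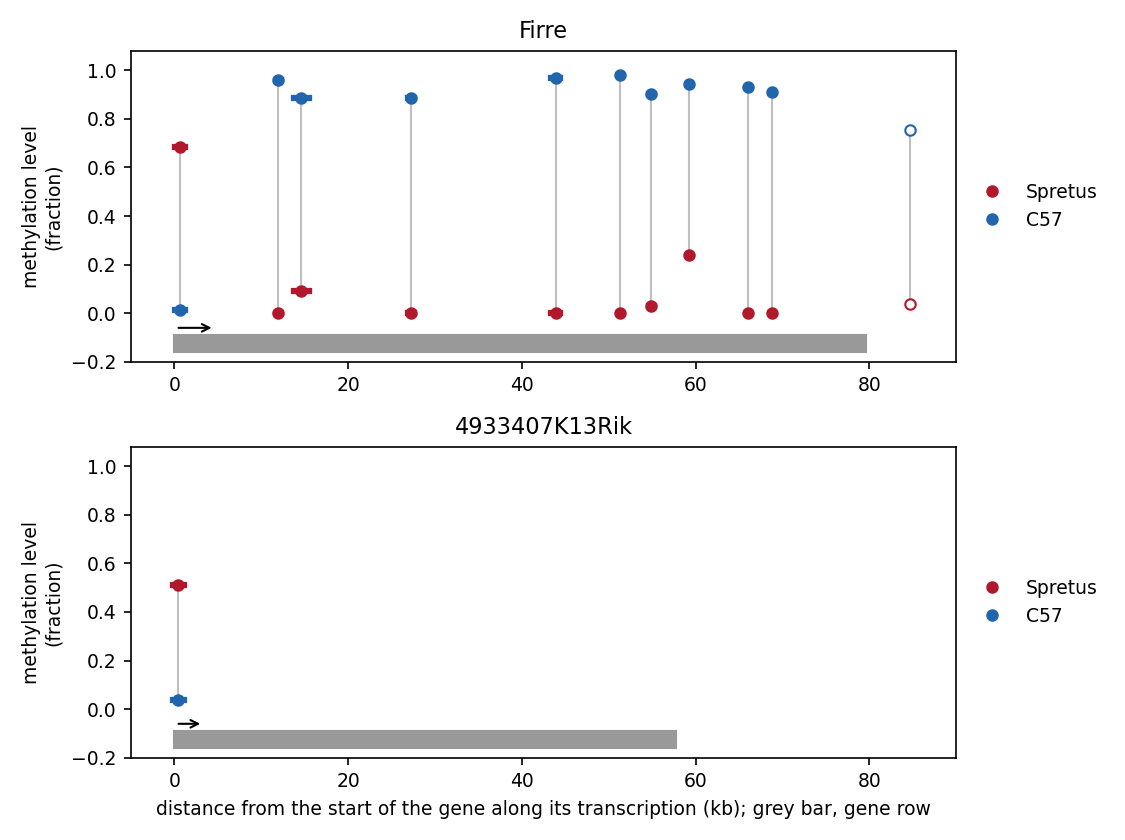
Methylation level (fraction) of the Spretus and C57 alleles in each listed region within 10 kb of Firre and 4933407K13Rik, against distance in kb from the start of the gene in the direction of transcription. Thick horizontal lines show the extent of a region, open points a region beyond 2 kb of the gene row, and grey bars the gene rows. The start regions have Spretus at 0.685 and 0.512 above C57, and the 9 regions further into Firre have C57 at 0.884 to 0.982 above Spretus.

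The start region of Firre, X 50634047 to 50635226, was 1179 bp long and lay from 95 to 1274 bp inside the gene. Its level was 0.685 on Spretus and 0.0123 on C57. It ended 46 bases short of the start window printed above, so none of the 12 CpG sites of that window lie in it. The start region of 4933407K13Rik, X 75763645 to 75764840, was 1195 bp long and ran from 141 bp before the start to 1054 bp inside the gene. Its level was 0.512 on Spretus and 0.0367 on C57. It covered 191 bases of the printed window, with 10 of its 11 CpG sites. Both regions were longer than most of the 519 Spretus-higher X-linked regions, at percentiles 91.7 and 92.1 of length. On Spretus, the level of Firre lay near the middle of these regions, with 213 lower, and that of 4933407K13Rik near the low end, with 22 lower, against an interquartile range of 0.628 to 0.791.

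Start windows of X-linked genes met a Spretus-higher region in 155 of 1046 genes, 4933407K13Rik among them. A C57-higher region met the start window of 1 gene, Xist. The Firre window met no region and is in neither count.

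Inside Firre, the 9 C57-higher regions covered 5071 bp, or 6.37% of the gene row, and were spread over 57.1 kb, with gaps of 1.50 to 15.8 kb between them. The region nearest to the start, X 50623072 to 50623611, had a level of 0 on Spretus and 0.959 on C57. The longest, X 50619840 to 50621571, was 1731 bp long with levels of 0.0925 on Spretus and 0.884 on C57, and it was the longest of all 75 C57-higher X-linked regions. Next to it in the direction of transcription was X 50607789 to 50608405, with 0 on Spretus and 0.886 on C57. These lay 12.0, 14.6 and 27.2 kb from the start, and in all of them the Spretus allele was nearly free of methylation.

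Further along the gene, X 50590875 to 50591987 was 1112 bp long, the third longest of the C57-higher X-linked regions, with 0 on Spretus and 0.966 on C57. X 50583901 to 50584135 had the highest C57 level of the 9, with 0 on Spretus and 0.982 on C57. X 50580155 to 50580663 had 0.0290 on Spretus and 0.901 on C57. Toward the end of the gene the regions were shorter. X 50576038 to 50576179, of 141 bp, had the highest Spretus level of the 9, with 0.238 on Spretus and 0.945 on C57. X 50569314 to 50569384, of 70 bp, had 0 on Spretus and 0.929 on C57, and X 50566505 to 50566625, of 120 bp, had 0 on Spretus and 0.912 on C57. All 9 lay inside RefSeq Firre and outside the part of the row that overlaps Gm35612.

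Over the 9 C57-higher Firre regions, the Spretus level minus the C57 level ran from -0.982 to -0.707. Spretus was at exactly 0 in 6 of the 9, and the median level was 0 on Spretus and 0.929 on C57. The 66 other C57-higher regions of the X chromosome had medians of 0.267 on Spretus and 0.926 on C57, with 14 of them at exactly 0 on Spretus. The regions thus resembled each other on C57, and the Spretus level was where those of Firre lay lower. Median length was 508 bp at Firre and 308 bp elsewhere. The Spretus sequence under these regions and the number of cytosines and reads in each were not used here, so the precision of a level of 0 is unknown.

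**Figure D4:**
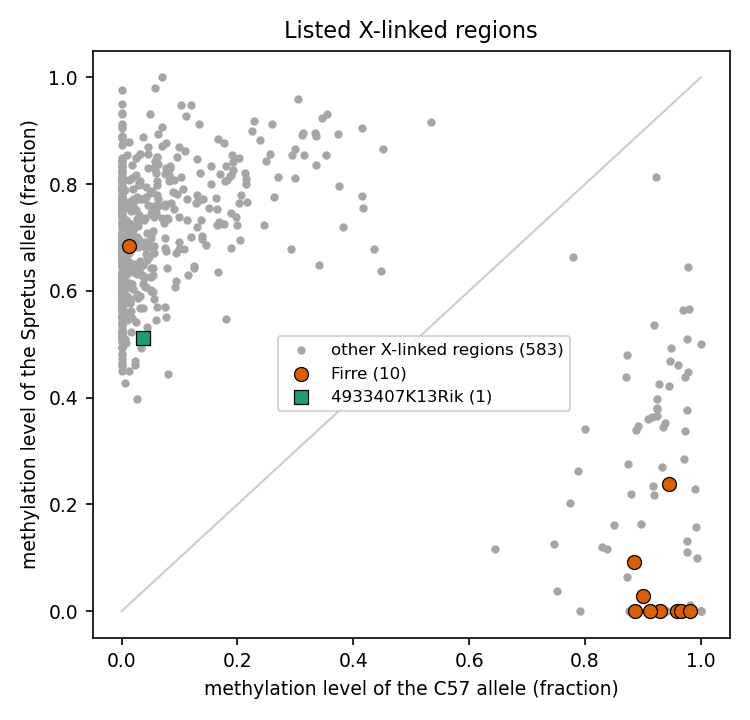
Each point is a listed X-linked region, with the methylation level of the C57 allele (fraction) on the horizontal and of the Spretus allele on the vertical axis, and the grey line marks equal levels. Of the Firre regions, 9 lie at the lower right with 0 to 0.238 on Spretus and 1 lies at the upper left, where the region of 4933407K13Rik stands at 0.512 on Spretus.

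Firre alone held 12.0% of the C57-higher regions of the X chromosome, 9 of 75. Of 437 X-linked gene rows with a listed region within 2 kb, 42 had at least 1 C57-higher region and 7 had at least 2. The next highest count was 5, at Bcor, which encodes a corepressor, followed by Prrg1 with 3, and by Xist with 3, which Tsix, Gm26992 and in part Gm27520 share because they overlap it. Both directions occurred at 15 rows, Firre among them, and 80 of the 437 rows were longer than that of Firre. Of the listed X-inactivation and noncoding loci, Jpx, Ftx and 5530601H04Rik had no region, Gm14636 had 2 and both were higher on Spretus, and Rlim had 2 higher on Spretus and 1 higher on C57. 4933407K13Rik, at 57.8 kb, had no C57-higher region.

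**Figure D5:**
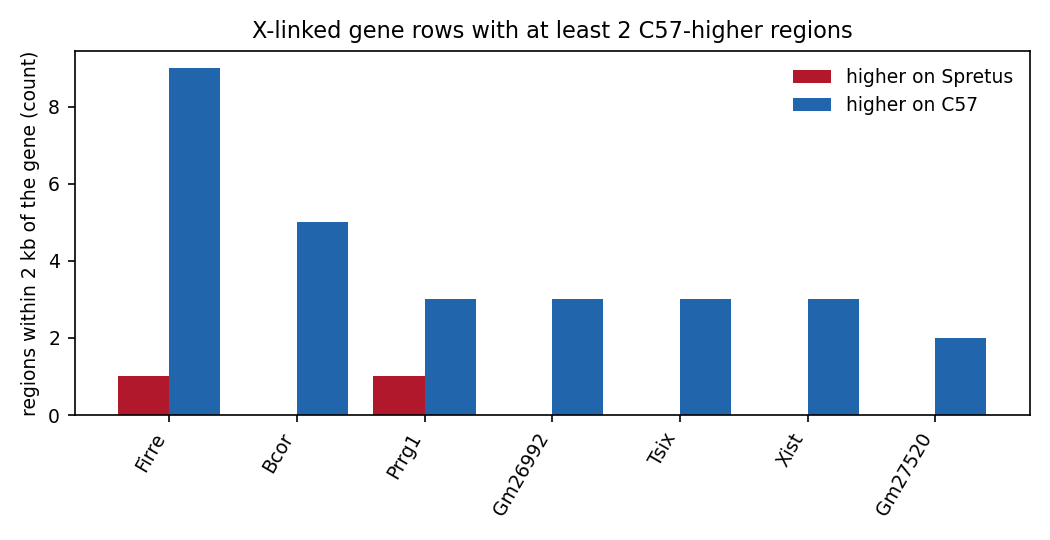
Bars count the listed regions within 2 kb of each X-linked gene row that has at least 2 C57-higher regions, split by the allele with the higher level. Firre has 1 region higher on Spretus and 9 higher on C57, followed by Bcor with 0 and 5.

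Regions around the loci were mixed in direction. Within 500 kb of Firre, outside the 2 kb limit, lay 8 regions, 5 higher on Spretus and 3 higher on C57. The nearest, X 50550478 to 50550792, lay 4.95 kb past the end of the Firre row and inside the RefSeq span of Gm35612, with 0.0380 on Spretus and 0.752 on C57. On the other side, 55.5 kb before the start, X 50690787 to 50691064 had 0.885 on Spretus and 0.167 on C57. The Spretus-higher regions in Stk26, a kinase gene (0.629 on Spretus and 0.0353 on C57), and in Rap2c, a small GTPase gene (0.777 and 0.0263), were the only ones of the 8 that lay in gene rows. Within 500 kb of 4933407K13Rik lay 4 regions, 2 in each direction. The nearest, 109 kb away in Pls3, had 0.661 on Spretus and 0 on C57, and X 75930366 to 75930880, 166 kb away, had 0.360 on Spretus and 0.909 on C57.

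Set side by side, the loci had different sets of listed regions. Their Spretus shares were 1.65% for Firre and 1.67% for 4933407K13Rik, but the last is 1 of 60 reads with an interval of 0.0422 to 8.94%. Without library 1 the shares were 0.613% and 0%, so likeness of the loci cannot be read from them. A Spretus-higher region overlapped the start window of 4933407K13Rik, and one lay 46 bases from that of Firre. The C57-higher regions stood in Firre, 9 in number, with none listed at 4933407K13Rik. Whether the RNA of each allele goes with its methylation was not tested, since MethylC-seq levels cannot be matched to libraries.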

How the data were processed

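RNA-seq (2 libraries) and MethylC-seq (2 libraries) came from pooled prefrontal cortex, per the labels. The authors deposited, per the file headers, raw allele-assigned counts for every gene and a joint FPKM of both alleles. Their MethylC-seq list gives each region's level by allele as a deposited fraction. Coverage, cytosine context and caller settings are not stated in the sources used here. Named without a role in the submitters' processing notes are bedtools 2.2.4, HTSeq 0.6.0, Cufflinks 2.1.1 and TopHat2 2.0.9, with build mm10. How reads that match several repeats were counted is not stated there, and both loci hold repeats.

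Gene starts count from 0 in the tables and are given here from 1; regions are given as listed, with length as end minus start. Identifiers at more than 1 locus were used once. Of 1613 regions, 13 had no levels and were left out. Allelic ratios were tested with edgeR 4.0.16 in R 4.3.3 (glmQLFit, glmQLFTest, TMM, allele as the only term) where each library had 10 or more reads of a gene, with Benjamini-Hochberg adjustment over the whole table and a threshold of 0.05. CPM here is the sum of both alleles' reads scaled to the library's allele-assigned total. The alleles of a library share its RNA and are paired by design. Over 7565 autosomal genes with 200 reads or more, their deviations from the allele means correlated at 0.597. A fit blocked on library, DESeq2 1.42.0, other scalings and filters, and leaving out each library were alternatives. Shares have exact Clopper-Pearson 95% intervals, and a count of 0 allows 3 reads of the total. Named genes were the members, overlapping rows, the 5 nearest measured genes on each side, the 5 genes nearest in share and fixed lists. Gm26992, Gm27520, Bcor and Prrg1, and the genes of flanking regions, were named after their values were seen. The members and lists were chosen with earlier results of these data known. Wapl was matched by its gene ID under an older symbol, and 1 listed gene, Linx, had no row.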

Additional observations from a re-analysis of the deposited data

How the results depend on the processing

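Both members kept their direction and their call toward C57 under every alternative with a test, namely other size factors, a shared library total, no filter, the replicate block and DESeq2. The precision did depend on the method. By DESeq2 the SE was 0.49 for Firre, and 1.38 for 4933407K13Rik with adjusted p = 0.00112. By edgeR they were 0.30 for Firre, and 0.59 for 4933407K13Rik with adjusted p = 3.72e-05. With the replicate block, which pairs the alleles, the log2 ratio was -5.74 for Firre (SE 0.15, against 0.30 without it). For 4933407K13Rik it was -5.45 (SE 0.66, against 0.59), and the block changed no call of the members. Leaving out 1 library gave values without a test of -7.07 to -5.59 for Firre and -6.66 to -5.24 for 4933407K13Rik. It gave Spretus shares of 0.613 to 1.86% for Firre and 0 to 2.13% for 4933407K13Rik. The lower ends come from library 2, which had 1 and 0 Spretus reads, so -6.66 is set by depth and a small count that the fit adds. The number of X-linked calls could not be given for 1 library, since no residual degrees of freedom remain. The mean log2 level of 4933407K13Rik was -0.852 with a pseudocount of 0.1, against 0.605 with 1, which follows from its FPKM being below 1. C57-higher regions at Firre numbered 6 of 7 at a length of at least 200 bp and 10 of 11 within 10 kb. The region of 4933407K13Rik fell out at a level difference of at least 0.5. Depth limits the Spretus share of 4933407K13Rik, which rests on 60 reads, and the precision of the methylation levels is unknown.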
